A study of Mus musculus with 60 samples.

Results

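Hepatocyte-like cells obtained by induced maturation of long-passaged progenitor-like cells were compared with hepatocytes taken fresh from mouse liver. The comparison rests on 9 of the 60 samples of the series, namely 3 samples of primary hepatocytes and 3 samples of IL6-iMHs (P10) from each of 2 lines, called mouse-1 and mouse-2. The members were fixed by sample title, and 10334 of the 19357 genes listed, those at 1 FPKM or more in at least 3 of these 9 samples, were tested. FPKM counts sequenced fragments relative to transcript length and library size.

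The series follows mouse hepatocytes that enter division in culture with the cytokine interleukin 6 (IL6), become IL6-induced hepatic progenitor-like cells (IL6-iHPCs), and are then returned to a hepatocyte state as IL6-induced mature hepatocytes (IL6-iMHs). The labels give wild type (WT) C57BL/6 mice and liver for every sample, and the methods give C57BL/6J mice aged 8 to 10 weeks. The hepatocytes had no culture. The IL6-iMHs had been expanded to passage 10 in medium with epidermal growth factor, hepatocyte growth factor, dexamethasone and IL6, and were then held for 7 days in a maturation medium with insulin, transferrin, selenium, dexamethasone and oncostatin M, without added IL6. Per the study, a line was made from a single mouse and the repeats within a group are technical. Every p-value below therefore covers technical spread and not the variation between mice. Culture, maturation, passage and donor differ together between the groups and cannot be told apart.

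Hepatocytes make most proteins of the blood plasma, clear ammonia through the urea cycle, make glucose between meals, form bile acids and modify drugs for excretion. Their identity is held by a network of transcription factors that includes HNF4A, the FOXA proteins and the C/EBP proteins. In culture, hepatocytes are known to lose many of these products and to take up the cytoskeletal, adhesion and glycolytic genes of spread, attached cells, while glucocorticoids such as dexamethasone and cytokines of the IL6 family such as oncostatin M act as maturation signals and also switch on acute phase genes, the plasma proteins of inflammation.

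Recovered reads on genes ranged from 56367454 to 88877760 per sample. No pair of replicates was within sampling noise, the chi-square per gene being 21.8 to 60.1 in all pairs but those with mouse-1 replicate 2, which reached 141 and 125, so that library stood apart from the other samples of its line. The hepatocyte markers albumin (Alb), Apoa1, Hnf4a, Ttr and Serpina1a were present in all 9 samples. Reads on 4 Y-linked genes numbered 1038, 1550 and 994 in the hepatocytes and 0 in all 6 IL6-iMH samples and in the IL6-iHPCs (P10) they came from, so the donors' sex and a loss of the Y chromosome in culture cannot be told apart. The hepatocytes also carried traces of other liver cells. Blood cell markers (15 genes) summed to 119 to 136 FPKM in hepatocytes and 0.355 to 1.10 in IL6-iMHs, where 11 to 13 of the 15 were at 0. The hepatocyte sum was mostly Alas2, at 93.4 ± 4.13 FPKM, with the globins Hbb-bs and Hba-a1 at 11.1 ± 2.04 and 6.58 ± 2.41. It is therefore no measure of the amount of blood cells. Of 15 Kupffer cell and macrophage markers, 10 to 12 were at 0 in each IL6-iMH sample and none in the hepatocytes.

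In all, 1836 genes were higher in IL6-iMHs than in hepatocytes in both lines (17.8% of those tested) and 782 were lower (7.57%), by 2-fold or more and with an adjusted p under 0.05 in each line (limma with Benjamini-Hochberg adjustment, as throughout). Taken line by line, mouse-1 had 3116 genes higher (30.2%) and 888 lower (8.59%), and mouse-2 had 2167 higher (21.0%) and 936 lower (9.06%). For 4643 genes (44.9%) the 95% interval of the difference lay within 2-fold of hepatocytes in both lines. Differences are given on the log2(FPKM + 1) scale, as the mean of both lines minus hepatocytes, and the scale understates the change of genes with low values. The balance of rises and falls depended on scaling. The median difference over all genes tested was 0.46, and 70.13% of the called genes were higher, against 1097 higher and 973 lower (53.0% higher) after quantile normalization, which brought the median to 0.01, and 928 higher and 1178 lower (44.06% higher) after centring each sample on its median, which brought it to -0.08. Values of gene lists are therefore to be read against 0.46. More genes were detected in IL6-iMHs, with 9328 to 10009 genes at 1 FPKM or more in a sample against 8420 to 8684 in hepatocytes. Without mouse-1 replicate 2, the numbers were 1875 higher, 781 lower and 4775 within 2-fold.

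**Figure D1:**
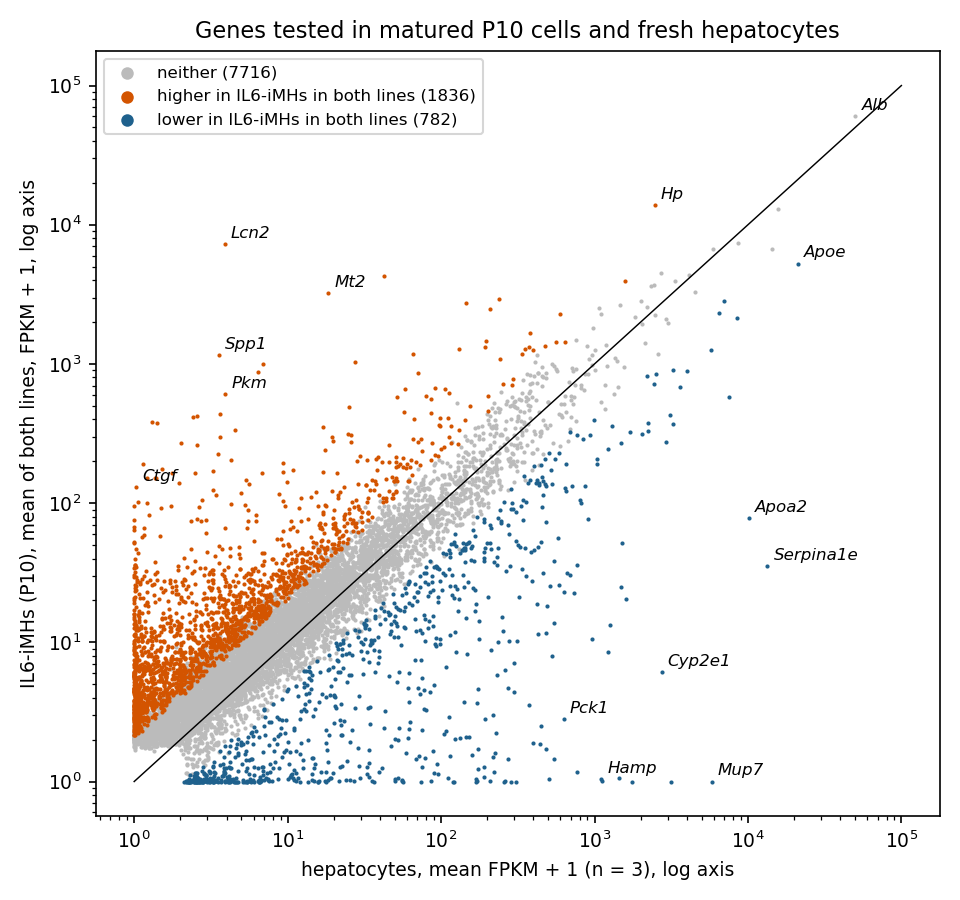
Each point is 1 of 10334 genes, placed by its mean FPKM + 1 in hepatocytes (x axis, log scale, n = 3) and in IL6-iMHs (P10) (y axis, log scale, mean of both lines). Orange marks the 1836 genes higher and blue the 782 genes lower in both lines, and the diagonal marks equal levels. Alb lies near the diagonal at the top right, Lcn2 and Mt2 lie far above it, and Serpina1e, Apoa2, Cyp2e1 and Mup7 lie far below it.

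Albumin, the main protein of plasma and the most abundant transcript in hepatocytes and both IL6-iMH lines, stayed within 2-fold of fresh hepatocytes. Its values were 47360, 48920 and 53750 FPKM in the hepatocyte samples, 60210, 55470 and 60880 in mouse-1 and 61970, 60750 and 63710 in mouse-2. Each IL6-iMH sample was above each hepatocyte sample, by little, and the 95% interval of the log2 difference was -0.14 to 0.61 in mouse-1 and -0.06 to 0.69 in mouse-2. Albumin made up 7.81 to 8.87% of summed FPKM in hepatocytes and 10.4 to 11.3% in IL6-iMHs. In the IL6-iHPCs (P10) before maturation it was at 6835 ± 435 and 8098 ± 293 FPKM. Of the 20 most abundant genes over the 9 samples, 3 were higher in IL6-iMHs, 6 were lower and 11 were neither, 7 of them within 2-fold.

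Of 25 hepatocyte transcription factors tested, 1 was higher, 5 were lower and 11 were within 2-fold. Over all genes tested, 17.8% were higher, 7.57% lower and 44.9% within 2-fold. The share within 2-fold was thus close to that over all genes, while the calls leaned to falls. The list median of 0.25 turned to -0.13 after quantile normalization and -0.29 after centring. The nuclear receptor gene Hnf4a, a master regulator of hepatocyte genes, stood at 134, 139 and 147 FPKM in the hepatocyte samples, 195, 194 and 173 in mouse-1 and 181, 166 and 185 in mouse-2, so that each IL6-iMH sample was above each hepatocyte sample while the difference stayed small (0.37, within 2-fold in both lines). Nr1i2 (the drug sensor PXR) and Xbp1 were also within 2-fold.

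Cebpa, which drives many genes of liver metabolism, fell from 274 ± 27.6 to 65.4 ± 1.97 and 71.3 ± 2.04 FPKM. Nr1i3, the drug sensor CAR, fell from 22.4 ± 0.206 to 2.13 ± 0.383 and 1.29 ± 0.301 FPKM, and Nr0b2, the repressor SHP that bile acids induce through FXR, fell from 74.2 ± 7.68 to 0.0586 ± 0.0260 and 0.483 ± 0.171 FPKM, a difference of -5.91 (SE 0.09, adjusted p = 2.57e-14). Foxa1 and Tbx3 were the other 2 that fell. Nr1h4, the bile acid receptor FXR itself, was the 1 factor that rose, from 44.8 ± 1.92 to 119 ± 13.3 and 125 ± 3.51 FPKM, and it lost that call after centring (0.88). FXR and its target SHP thus moved in opposite directions in both lines.

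Among plasma carrier and inhibitor proteins, 0 of 26 were higher, 13 were lower and 8 were within 2-fold, with a list median of -1.15. The carriers of iron (Trf), retinol (Rbp4) and vitamin D (Gc) were within 2-fold, with Trf at 5876 ± 932 FPKM in hepatocytes and 7283 ± 898 and 6181 ± 418 in mouse-1 and mouse-2. Ttr, which carries thyroid hormone, fell from 6518 ± 277 to 2252 ± 187 and 2365 ± 146 FPKM, a call lost after quantile normalization (-0.99). Serpina6, which carries cortisol, fell from 88.3 ± 6.01 to 0.114 ± 0.0527 and 0.184 ± 0.0281 FPKM, and Pon1, an esterase of lipoprotein particles, fell from 485 ± 34.8 to 1.26 ± 0.247 and 0.141 ± 0.0122 FPKM. On the log2(FPKM + 1) scale, which understates falls to low values such as those of Serpina6 and Pon1, the deepest loss was in Serpina1e. This gene is one of several near-identical copies of the alpha-1-antitrypsin gene among which reads could be split. It was at 12800, 12710 and 14590 FPKM in the hepatocyte samples, 42.4, 32.5 and 34.3 in mouse-1 and 34.9, 35.8 and 26.4 in mouse-2. All 5 Serpina1 genes on the list fell, and the call of Serpina1b was lost after quantile normalization (-0.84).

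**Figure D2:**
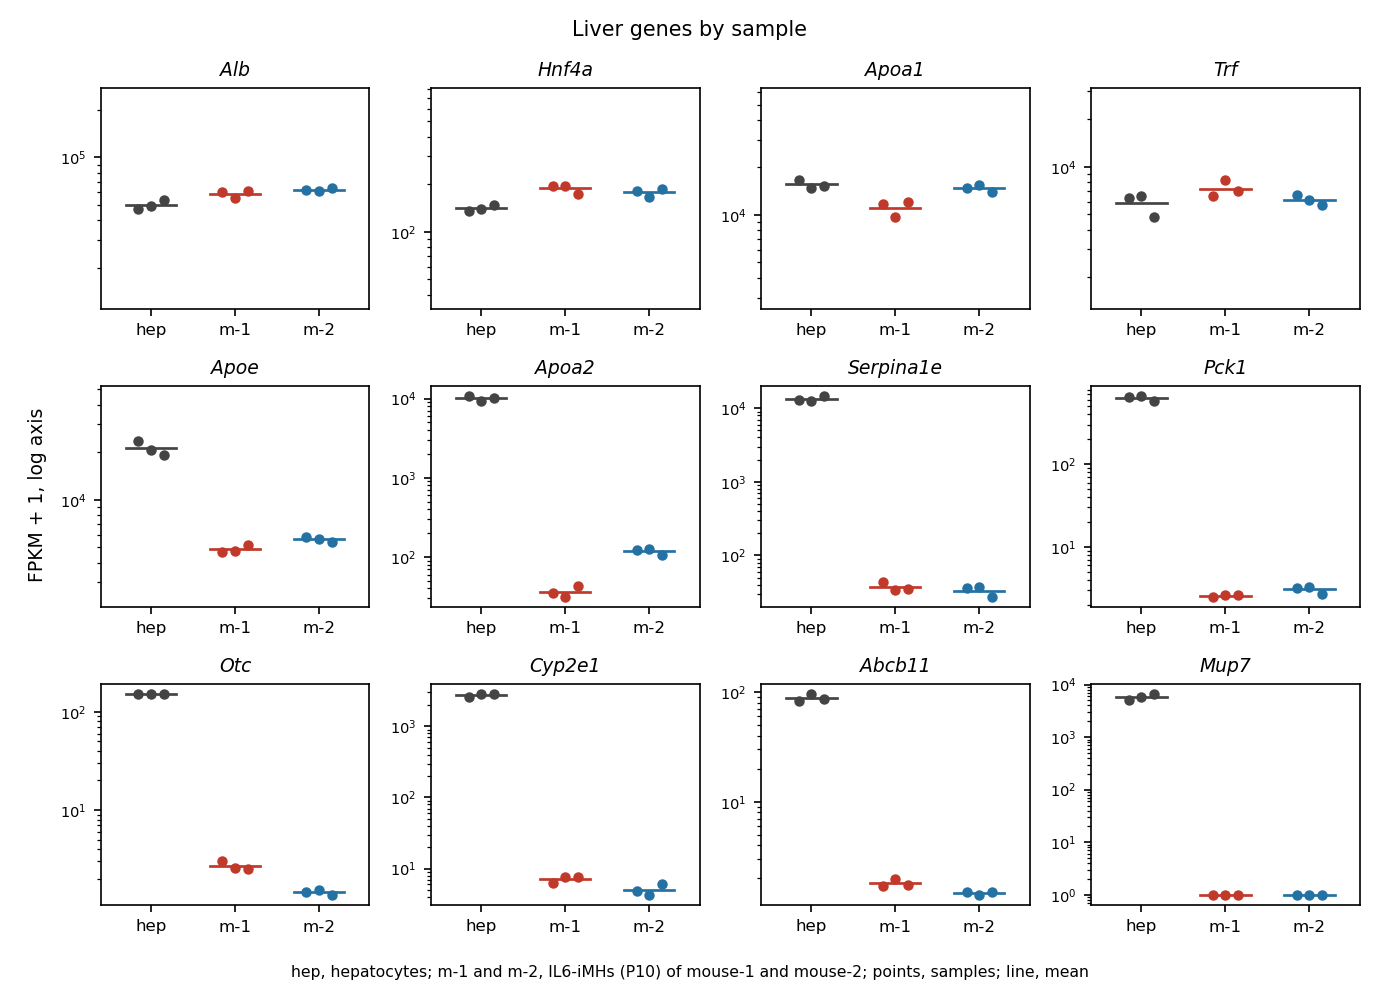
FPKM + 1 (y axis, log scale) of 12 liver genes in each sample of hepatocytes and of the mouse-1 and mouse-2 lines of IL6-iMHs (P10), with points for samples and lines for group means. Alb, Hnf4a, Apoa1 and Trf lie at similar heights in the 3 groups, while the other 8 genes lie lower in all 6 IL6-iMH samples than in any hepatocyte sample.

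The complement system and the clotting cascade showed the same division within a pathway. Of 20 complement genes, 0 were higher, 11 lower and 6 within 2-fold (median -1.45). C3, the central component, was within 2-fold at 2040 ± 176 FPKM in hepatocytes and 1621 ± 472 and 2275 ± 126 in mouse-1 and mouse-2, as were C4b and Cfi. The genes of the membrane attack complex fell together, with C8a going from 322 ± 18.1 to 12.2 ± 0.846 and 28.4 ± 0.616 FPKM, C8b from 389 ± 18.8 to 39.5 ± 2.41 and 13.8 ± 1.44 FPKM and C9 from 404 ± 12.7 to 37.5 ± 2.31 and 52.1 ± 2.65 FPKM. Mbl2, a lectin that starts the lectin pathway, fell from 394 ± 41.5 to 0.510 ± 0.102 and 1.28 ± 0.162 FPKM.

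Of 22 genes of coagulation and fibrinolysis, 4 were higher and 11 lower (median -1.32). Prothrombin (F2) and vitronectin (Vtn) were within 2-fold. Antithrombin (Serpinc1), the chief brake on thrombin, fell from 1606 ± 30.9 to 15.8 ± 2.25 and 23.1 ± 4.69 FPKM, and plasma prekallikrein (Klkb1) and Cpb2 fell by over 3 on the log2 scale. The plasminogen activator Plat rose from 0.00463 ± 0.00802 to 8.93 ± 1.94 and 18.6 ± 1.25 FPKM, the urokinase receptor Plaur from 0.310 ± 0.114 to 5.52 ± 0.603 and 14.4 ± 0.295 FPKM and tissue factor (F3), which starts clotting, from 0.949 ± 0.0637 to 7.37 ± 0.0844 and 4.55 ± 0.0764 FPKM.

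Of 22 apolipoproteins and genes of lipoprotein handling, 2 were higher, 10 lower and 4 within 2-fold (median -0.79). Apoa1, the main protein of high-density lipoprotein, was within 2-fold at 15600 ± 1009 FPKM in hepatocytes and 11140 ± 1250 and 14750 ± 772 in mouse-1 and mouse-2. Its partner Apoa2 was at 10750, 9262 and 10320 FPKM in the hepatocyte samples, 33.7, 30.4 and 41.4 in mouse-1 and 123, 126 and 106 in mouse-2, with every IL6-iMH sample far below every hepatocyte sample and mouse-1 below mouse-2. Apoe, the remnant ligand, fell from 21170 ± 2183 to 4864 ± 252 and 5632 ± 205 FPKM, Apoa5, which aids triglyceride clearance, fell from 955 ± 55.3 to 6.54 ± 1.09 and 12.7 ± 0.357 FPKM, and hepatic lipase (Lipc) fell from 124 ± 6.20 to 2.77 ± 0.409 and 12.3 ± 1.44 FPKM. Apoa4 rose from 23.9 ± 1.33 to 351 ± 40.9 and 271 ± 14.3 FPKM.

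The acute phase proteins moved mostly the other way. Of 23 tested, 10 were higher, 2 lower and 4 within 2-fold, and the list median was 0.92 (0.38 after centring). Lcn2, an iron-scavenging protein of the acute phase and of injured epithelia, showed the largest difference among the called genes that rose, on the log2(FPKM + 1) scale, at 2.97, 3.18 and 2.50 FPKM in the hepatocyte samples, 5580, 5714 and 6623 in mouse-1 and 8211, 8548 and 8863 in mouse-2. Every IL6-iMH sample lay far above every hepatocyte sample, and the difference was 10.85 (SE 0.08, adjusted p = 2.78e-16). The level before maturation was already high, at 8609 ± 752 and 4430 ± 26.9 FPKM in the IL6-iHPCs of mouse-1 and mouse-2. Haptoglobin (Hp), which binds free haemoglobin, rose from 2463 ± 119 to 11680 ± 607 and 16070 ± 181 FPKM, the protease inhibitor Serpina3n from 144 ± 21.2 to 2783 ± 448 and 2681 ± 273 FPKM and Orm2 from 18.8 ± 0.933 to 126 ± 26.9 and 427 ± 10.8 FPKM. Saa1 and Saa2, whose near-identical copies can share reads, rose by 2.46 and 3.07.

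The fibrinogen genes Fga, Fgb and Fgg, with differences of 0.85, 0.71 and 0.59, did not reach 2-fold in both lines, Fgb passing only after quantile normalization (1.06). Hepcidin (Hamp), the hormone that limits iron release and itself an acute phase gene, was close to absent at 1196, 1109 and 1019 FPKM in the hepatocyte samples, 0, 0.249 and 0 in mouse-1 and 0, 0 and 0 in mouse-2, with a difference of -10.06 (SE 0.08, adjusted p = 5.65e-16). Saa4, a member that is made without inflammation, fell from 169 ± 4.36 to 10.6 ± 0.595 and 25.4 ± 1.29 FPKM. A list of 19 genes of IL6-family signalling held 7 that were higher, 3 lower and 3 within 2-fold (median 0.95). The oncostatin M receptor gene Osmr rose from 0.0344 ± 0.0281 to 2.64 ± 0.403 and 2.62 ± 0.160 FPKM, and Il6ra and the shared subunit Il6st rose by 2.00 and 1.32. Lifr, the receptor for leukaemia inhibitory factor, fell from 103 ± 3.31 to 0.922 ± 0.132 and 1.47 ± 0.121 FPKM, and the feedback inhibitor Socs3 fell from 63.4 ± 3.19 to 11.8 ± 0.365 and 23.3 ± 2.01 FPKM. Receptor subunits of 1 cytokine family therefore moved in opposite directions.

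Transcripts of enzymes that break down amino acids fell widely. Of 28 tested, 0 were higher, 22 lower and 4 within 2-fold, with a median of -2.26. Agxt, which detoxifies glyoxylate, fell from 273 ± 6.11 to 0.660 ± 0.137 and 0.224 ± 0.0978 FPKM, histidine ammonia-lyase (Hal) fell from 259.9 ± 14.1 to 8.16 ± 1.12 and 2.54 ± 0.393 FPKM and Haao, of tryptophan breakdown, fell from 540.5 ± 34.5 to 6.81 ± 1.04 and 18.5 ± 0.917 FPKM. The tyrosine pathway was uneven along its steps. Tat fell from 403 ± 18.9 to 187 ± 19.1 and 183 ± 13.7 FPKM (not called after quantile normalization, -0.96), Hpd fell from 1715 ± 4.54 to 377 ± 58.4 and 268 ± 23.5 FPKM and Hgd from 458 ± 20.6 to 26.6 ± 1.43 and 34.4 ± 0.136 FPKM, whereas Fah, the last enzyme of the pathway, was within 2-fold at 358 ± 31.1 FPKM in hepatocytes and 310 ± 24.2 and 359 ± 5.17 in mouse-1 and mouse-2.

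Of 13 urea cycle and ammonia genes, 1 was higher, 7 were lower and 0 were within 2-fold (median -1.21). Ornithine transcarbamylase (Otc) was at 150, 151 and 150.2 FPKM in the hepatocyte samples, 2.04, 1.55 and 1.53 in mouse-1 and 0.465, 0.545 and 0.364 in mouse-2, so all IL6-iMH samples lay far below all hepatocyte samples, with a difference of -6.25 (SE 0.08, adjusted p = 4.97e-15). Argininosuccinate lyase (Asl) fell from 479 ± 13.5 to 71.0 ± 2.83 and 73.6 ± 3.36 FPKM, and the mitochondrial glutaminase Gls2 from 296 ± 4.34 to 9.41 ± 0.410 and 2.74 ± 0.314 FPKM. Cps1, the entry enzyme, and Ass1 were not called, at 701 ± 90.5 FPKM in hepatocytes and 819 ± 253 and 274 ± 34.2 in mouse-1 and mouse-2 for Cps1 and 2141 ± 201 FPKM in hepatocytes and 1782 ± 269 and 1022 ± 8.70 in mouse-1 and mouse-2 for Ass1. Arg1, which releases urea, passed the threshold in mouse-1 (-1.90) and not in mouse-2 (-0.52), and the lines differed by -1.38 (SE 0.10, adjusted p = 9.7e-07). Glul, the glutamine synthetase that takes up ammonia around the central vein, rose from 13.7 ± 0.738 to 41.8 ± 2.14 and 53.3 ± 1.64 FPKM, a call lost after centring (1.17).

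Transcripts of glucose metabolism changed at the enzymes that set its direction. Phosphoenolpyruvate carboxykinase (Pck1), which controls entry into gluconeogenesis, was at 644, 665 and 578 FPKM in the hepatocyte samples, 1.49, 1.63 and 1.6 in mouse-1 and 2.16, 2.31 and 1.70 in mouse-2 and so near absent in all 6 IL6-iMH samples, a difference of -7.81 (SE 0.08, adjusted p = 1.24e-15). Fbp1 fell from 904 ± 29.8 to 64.0 ± 10.1 and 88.1 ± 25.7 FPKM, glucose-6-phosphatase (G6pc) from 162 ± 12.4 to 26.7 ± 0.841 and 48.2 ± 2.59 FPKM and liver glycogen phosphorylase (Pygl) from 165 ± 4.53 to 18.2 ± 2.57 and 27.4 ± 3.77 FPKM. On the same list of 14 genes, the glucose transporter Slc2a2 and the glucose-6-phosphate transporter Slc37a4 rose by 1.65 and 1.95, and Slc2a2 lost its call after centring (1.11). The list as a whole had 3 higher, 4 lower and 2 within 2-fold, with a median of 0.33 that became -0.21 after centring.

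Of a list of glycolytic genes, mostly isoenzymes of other tissues, 12 of 13 were higher and 0 lower (median 2.33, and 10 of 13 after centring). Pkm, the pyruvate kinase of dividing and muscle cells, was at 3.09, 3.00 and 2.69 FPKM in the hepatocyte samples, 474, 448 and 478 in mouse-1 and 728, 743 and 757 in mouse-2 and did not overlap between the groups (7.23 (SE 0.06, adjusted p = 4.4e-16)). Pfkp, the platelet-type phosphofructokinase, rose from 0.164 ± 0.0186 to 68.5 ± 8.64 and 62.2 ± 7.00 FPKM, Gapdh from 4.54 ± 2.66 to 64.8 ± 53.0 and 111 ± 118 FPKM, Aldoa from 57.0 ± 4.34 to 593 ± 19.9 and 727 ± 9.52 FPKM and the hexokinase Hk2 from 0.0417 ± 0.00293 to 5.36 ± 1.33 and 2.37 ± 0.126 FPKM. Pfkm was the 1 member not called. The liver pyruvate kinase Pklr was not called, at 59.1 ± 2.25 FPKM in hepatocytes and 113 ± 4.05 and 148 ± 12.1 in mouse-1 and mouse-2. Gapdh has many processed pseudogenes, among which reads could be split, so its low level in hepatocytes, and its place among the 12, is uncertain.

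For fatty acid oxidation and ketogenesis, the share within 2-fold stood near the background of 44.9%. Of 20 genes, 9 were within 2-fold, 2 higher and 4 lower, and Cpt1a, Hadha and Acadvl were among the 9. The calls leaned to falls against backgrounds of 17.8% higher and 7.57% lower, with a median of -0.27 against 0.46 over all genes tested. Acaa1b, a peroxisomal thiolase, fell from 689 ± 57.4 to 31.0 ± 4.34 and 28.1 ± 1.15 FPKM, and the thioesterase Acot1 rose from 9.82 ± 0.662 to 186 ± 14.9 and 159 ± 6.13 FPKM. Of 28 genes of sterol and fatty acid synthesis, 15 were within 2-fold, 3 were higher and 1 was lower (median -0.13), and the regulators Srebf1 and Insig1 and the synthase Fasn were within 2-fold. The 1 that fell was Sc5d. Sqle, Lss and Acaca rose by 1.79, 1.52 and 1.18, with Lss and Acaca short of a call after centring (0.98 and 0.63) and Acaca after quantile normalization (0.67).

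Lipid-binding proteins exchanged members. Of 18 genes of lipid binding and droplets, 8 were higher, 2 lower and 5 within 2-fold (median 0.77). Fabp4, the fatty acid binding protein of fat cells and macrophages, was at 0.446, 0.434 and 0.358 FPKM in the hepatocyte samples, 396, 272 and 354 in mouse-1 and 412, 379.6 and 443 in mouse-2, below 1 FPKM in each hepatocyte sample and without overlap of the groups (8.05 (SE 0.10, adjusted p = 6.91e-15)). The fatty acid transporter Cd36 rose from 0.507 ± 0.0632 to 221 ± 23.7 and 131 ± 43.3 FPKM, and the droplet proteins Cidec and Plin4 rose by 4.11 and 3.95. The liver and intestinal forms Fabp1 and Fabp2 fell, Fabp1 going from 4029 ± 244 to 1073 ± 345 and 708 ± 80.1 FPKM and Fabp2 from 40.3 ± 3.56 to 0.0861 ± 0.0783 and 0.420 ± 0.0647 FPKM. Scd2, a desaturase of brain and other extrahepatic tissues, rose from 0.140 ± 0.0326 to 219 ± 29.9 and 163 ± 7.69 FPKM, while the liver form Scd1 was not called, at 438 ± 53.0 FPKM in hepatocytes and 204 ± 43.0 and 402 ± 14.0 in mouse-1 and mouse-2.

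Transcripts of many drug-metabolizing enzymes were lower, unevenly within families. Enzyme activity was not measured here, and the study reports that IL6-iMHs (P10) metabolized drugs in a manner similar to hepatocytes. Of 45 cytochromes P450 of families 1 to 4, 2 were higher, 22 lower and 10 within 2-fold (median -1.02). Cyp2e1, which oxidizes ethanol and acetaminophen, was at 2569, 2824 and 2807 FPKM in the hepatocyte samples, 5.22, 6.65 and 6.60 in mouse-1 and 3.84, 3.28 and 5.06 in mouse-2, all IL6-iMH samples being under 7 FPKM (-8.84 (SE 0.11, adjusted p = 4.45e-15)). Cyp1a2, which clears caffeine, fell from 297 ± 23.1 to 1.13 ± 0.0858 and 5.66 ± 1.42 FPKM, and it differed between the lines (-1.62 as mouse-1 minus mouse-2). Cyp2c50 fell from 501 ± 51.3 to 0.0747 ± 0.0602 and 0.0265 ± 0.0345 FPKM, as did the related Cyp2c54 and Cyp2c37, though members of the Cyp2c cluster are near-identical and reads could be split among them. In contrast, Cyp2a12 and Cyp4f13 were within 2-fold, Cyp3a11, the main mouse CYP3A, was not called at 818 ± 116 FPKM in hepatocytes and 884 ± 77.7 and 462 ± 92.7 in mouse-1 and mouse-2, and Cyp2b10, a target of CAR and PXR, rose from 1.96 ± 0.128 to 80.1 ± 10.9 and 40.2 ± 4.48 FPKM while Nr1i3 (CAR) fell. Cyp4b1 was the other that rose.

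Among 47 conjugating and other drug enzymes, 5 were higher, 26 lower and 6 within 2-fold (median -1.61). The carboxylesterase Ces3a fell from 1231 ± 104 to 1.97 ± 0.478 and 13.2 ± 1.25 FPKM, the glucuronosyltransferases Ugt3a2 and Ugt2b1 fell by over 7 on the log2 scale and the aldehyde oxidase Aox3 fell from 227 ± 16.0 to 0.944 ± 0.237 and 1.51 ± 0.362 FPKM. The sulfotransferases Sult1a1 and Sult1d1 rose, Sult1a1 going from 129.8 ± 7.93 to 1194 ± 90.5 and 1347 ± 36.3 FPKM and Sult1d1 from 18.5 ± 1.79 to 423 ± 78.7 and 175 ± 31.1 FPKM. The reductase Por, which feeds electrons to all microsomal P450 enzymes, was within 2-fold.

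Of 33 genes of bile acid synthesis and transport, 4 were higher, 20 lower and 7 within 2-fold (median -1.85). The bile salt export pump Abcb11 was at 81.0, 94.6 and 86.0 FPKM in the hepatocyte samples, 0.705, 0.973 and 0.736 in mouse-1 and 0.514, 0.418 and 0.518 in mouse-2, below 1 FPKM in all IL6-iMH samples, and the uptake transporter Slc10a1 (NTCP) fell from 279 ± 17.1 to 38.0 ± 1.93 and 31.2 ± 1.67 FPKM. Hydroxylases of both synthesis routes fell, Cyp7a1, the rate-limiting enzyme, from 12.7 ± 0.780 to 0.545 ± 0.131 and 1.41 ± 0.309 FPKM, Cyp8b1 from 272 ± 13.6 to 5.10 ± 0.694 and 2.23 ± 0.671 FPKM and Cyp7b1 from 189 ± 15 to 0.222 ± 0.00554 and 0.314 ± 0.0910 FPKM. Another hydroxylase, Cyp39a1, which acts on oxysterols, rose from 2.93 ± 0.0654 to 82.3 ± 5.07 and 48.6 ± 4.37 FPKM. The other 3 that rose were the basolateral exporters Abcc4 and Slc51b (1.63 and 2.33) and the ileal and cholangiocyte transporter Slc10a2 (2.16), while the canalicular exporter Abcc2 was within 2-fold. Export genes of the canalicular and the basolateral side hence did not move together.

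Genes with a male bias in mouse liver were lower almost without exception. Of 23 tested, 0 were higher, 21 lower and 1 within 2-fold, with a median of -5.91. Mup7, a urinary pheromone carrier, was at 5182, 5708 and 6542 FPKM in the hepatocyte samples, 0, 0 and 0 in mouse-1 and 0, 0 and 0 in mouse-2, which puts it at least 863000-fold lower by a floor of 3 reads over the 6 IL6-iMH samples. The steroid dehydrogenase Hsd3b5, at 284 ± 26.7 FPKM in hepatocytes and 0 in all 6 IL6-iMH samples, was at least 66800-fold lower by the same floor, and Elovl3, a fatty acid elongase at 254 ± 0.924 FPKM in hepatocytes, was also listed at 0 in all 6. Mup genes are near-identical copies and reads could be split among them. Cyp4a12a, a male-predominant P450, was the 1 within 2-fold, at 181 ± 4.64 FPKM in hepatocytes and 187 ± 10.8 and 149 ± 15 in mouse-1 and mouse-2. The female-biased genes were mostly below the filter, with 9 of 24 tested, of which 4 were higher, among them Cyp2b10 and Acot3, and 3 lower. Cyp17a1, an enzyme of steroid synthesis, rose from 1.02 ± 0.246 to 209.9 ± 24.1 and 329.5 ± 36.1 FPKM from a level of 0.961 ± 0.260 and 1.03 ± 0.203 FPKM in the IL6-iHPCs. As stated, Y-linked reads were found in the hepatocytes alone, and the part of sex in these differences was not tested.

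Liver sex bias is set largely by the rhythm of growth hormone through STAT5B. Of 17 genes of the growth hormone, insulin and IGF axis, 4 were higher and 6 lower, with a median of 0.73 that turned to -0.39 with a filter at 5 FPKM. The growth hormone receptor Ghr fell from 105 ± 5.55 to 36.5 ± 1.17 and 22.7 ± 1.19 FPKM, and the STAT5 targets Igf1 and Cish fell from 60.5 ± 1.18 to 3.16 ± 0.298 and 2.3 ± 0.353 FPKM and from 13.4 ± 1.82 to 0.223 ± 0.103 and 0.735 ± 0.0566 FPKM. Stat5b itself was within 2-fold. Igfbp2 was nearly absent at 1250, 1036 and 1094 FPKM in the hepatocyte samples, 0, 0 and 0 in mouse-1 and 0.0111, 0 and 0.0558 in mouse-2, whereas Igfbp1, which glucocorticoids induce, rose from 69.4 ± 3.82 to 914 ± 76.6 and 803 ± 68.0 FPKM, as did Igfbp7 and Igfbp3. Binding proteins of 1 family thus moved in both directions.

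Zonal genes fell on both sides of the lobule. Of 12 pericentral genes, 1 was higher and 8 lower (median -1.52), and of 16 periportal genes, 1 was higher and 8 lower (median -1.30). Gulo, the enzyme of vitamin C synthesis, and Lect2 fell with Cyp2e1 on the pericentral side, and Sds, Hal and Gls2 on the periportal side. The 1 that rose on each side was Glul and Hsd17b13 (1.29), and both lost their call after centring (1.17 and 0.75).

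Targets of glucocorticoids were high. Of 16 tested, 10 were higher, 2 lower and 2 within 2-fold (median 2.11). Fkbp5, a chaperone that glucocorticoids induce in many tissues, rose from 3.56 ± 0.186 to 409 ± 38.4 and 261 ± 4.57 FPKM, the kinase Sgk1 from 1.56 ± 0.216 to 306 ± 21.9 and 212 ± 15.7 FPKM and the clock gene Per1 from 0.239 ± 0.0507 to 9.50 ± 2.00 and 9.15 ± 0.914 FPKM. Dexamethasone is present in both culture media and was not given to the hepatocytes, and the media were not varied here. The 2 that fell were Tat and Serpina6, both hepatocyte products. Of 18 clock genes, 8 were higher and 1 lower (4 and 1 after quantile normalization or centring), and the time of day of each harvest is not given in the sources used here.

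The metallothioneins Mt1 and Mt2 bind zinc and copper and answer to metals and to glucocorticoids. Mt2 was at 15.7, 19.8 and 16.4 FPKM in the hepatocyte samples, 2829, 2690 and 3032 in mouse-1 and 3646, 3639 and 3546 in mouse-2, so all 6 IL6-iMH samples lay far above the hepatocytes, with a difference of 7.46 (SE 0.08, adjusted p = 2.35e-15), and Mt1 rose from 41.3 ± 3.17 to 4271 ± 526 and 4306 ± 999 FPKM. In the IL6-iHPCs Mt2 was already at 2659 ± 574 and 3756 ± 409 FPKM. The metal-responsive transcription factor binds the metal response element, searched here as TGCNCNC on both strands, and the Mt2 promoter is shown because this pair was the most raised of the metal genes. The 250 bases before its start (chr8:94172368-94172617, GRCm38.p6, plus strand, RefSeq) held 5 matches, given in capitals, none of which overlapped a match of the other motifs searched.
Mt2: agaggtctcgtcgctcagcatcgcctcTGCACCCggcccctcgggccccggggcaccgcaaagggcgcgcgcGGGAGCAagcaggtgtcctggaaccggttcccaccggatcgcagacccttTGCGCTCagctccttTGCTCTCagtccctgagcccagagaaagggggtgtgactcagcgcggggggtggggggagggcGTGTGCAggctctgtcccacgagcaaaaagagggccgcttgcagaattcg
This motif is short, and it was held by 44.4% of all 32851 promoters of that length, by 52.4% of those of the genes tested and by 9 of the 18 promoters of the metal genes, which cover 12 of those genes. A match is a description of the letters and not a site. Over the 18 metal handling genes, 5 were higher, 5 lower and 4 within 2-fold (median -0.07), the falls including Hamp, its copy Hamp2 and the iron exporter Slc40a1.

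Some genes of bile duct and progenitor cells were higher. Of 20 listed, 11 were tested, and 8 were higher, 1 lower and 1 within 2-fold (median 1.80). After quantile normalization or centring, 6 were higher. Genes near 0 in hepatocytes pass the filter only where IL6-iMHs are high, so the share among those tested leans to rises. With no filter, 8 of 20 were higher, 1 lower and 10 within 2-fold, with a median of 0.32. Their summed level was 24.8 to 28.9 FPKM in hepatocytes and 1292 to 1601 in IL6-iMHs, mostly Spp1. Osteopontin (Spp1), a secreted protein of cholangiocytes and injured tissue, was at 2.42, 2.28 and 2.97 FPKM in the hepatocyte samples, 1095, 1044 and 1215 in mouse-1 and 1104, 1131 and 1363 in mouse-2. These levels stood well above every hepatocyte sample and below those of the IL6-iHPCs, at 8034 ± 586 and 10350 ± 559.5 FPKM. Krt19, a keratin of bile ducts and progenitors, was at 0.0512, 0 and 0.0308 FPKM in the hepatocyte samples, 53.4, 40.4 and 50.2 in mouse-1 and 44.2, 47.5 and 40.4 in mouse-2, and Cd24a rose from 0.377 ± 0.107 to 154 ± 9.08 and 148 ± 8.86 FPKM. In the IL6-iHPCs of mouse-1 and mouse-2, Cd24a was lower than after maturation, at 69.5 ± 13.5 and 115 ± 2.27 FPKM. Krt19 was there at 7.65 ± 2.03 and 61.0 ± 0.557 FPKM, below the matured cells in mouse-1 and above them in mouse-2. Sox9, the progenitor factor, rose from 1.29 ± 0.419 to 3.90 ± 0.567 and 3.73 ± 0.557 FPKM, and its call was lost under both scalings (0.46 and 0.54). Epcam, Prom1, Cftr and Cldn4 stayed below the filter, and the water channel Aqp1 fell from 9.46 ± 0.563 to 0.0477 ± 0.0158 and 0.165 ± 0.0466 FPKM. 

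Of 18 genes of fetal liver, 6 were tested and 5 were higher. With no filter, 15 were tested, and 5 were higher, 0 lower and 8 within 2-fold (median 0.43). Tff3, a trefoil peptide, went from 5.44 ± 0.207 to 1074 ± 121 and 688 ± 57.3 FPKM. In the IL6-iHPCs it was at 2.71 ± 0.394 and 8.89 ± 1.61 FPKM. Afp, the fetal albumin, was not called, at 0.208 ± 0.0142 FPKM in hepatocytes and 3.08 ± 0.534 and 0.722 ± 0.0331 in mouse-1 and mouse-2. Dlk1, Gpc3, Igf2 and Lin28b were below the filter, and H19 was not analysed here.

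The cytoskeleton and its mesenchymal-type genes had the highest median among lists with at least 8 tested members, 2.62, with 23 of 31 higher, 0 lower and 1 within 2-fold (18 higher after centring). This rank depended on the log2(FPKM + 1) scale. With limma voom on recovered reads the median was 2.72, below that of other lists such as amino acid stress response at 4.25 and matrix at 3.55. The calcium-binding protein S100a6 rose from 1.43 ± 0.353 to 413 ± 85.2 and 422 ± 59.7 FPKM, annexin A2 (Anxa2) from 1.58 ± 0.264 to 289 ± 30.7 and 548 ± 4.44 FPKM and the actin-sequestering peptide Tmsb10 from 5.90 ± 1.16 to 881 ± 84.5 and 1124 ± 46.2 FPKM. Vimentin (Vim), a filament of mesenchymal and cultured cells, rose from 1.92 ± 0.266 to 81.5 ± 10.3 and 66.8 ± 7.94 FPKM, and the galectins Lgals3 and Lgals1 by 5.76 and 4.32. The epithelial gene Cdh1 was not lost, at 16.9 ± 1.74 FPKM in hepatocytes and 51.8 ± 5.47 and 28.0 ± 0.218 in mouse-1 and mouse-2, and Acta2, the actin of contractile myofibroblasts, was below 0.1 FPKM in each group.

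Of 19 genes of matrix, integrins and matrix enzymes, 12 were higher, 1 lower and 2 within 2-fold (median 2.58). The median was 2.66 with the 3 genes listed at 0 in the hepatocytes set at their lower bound. With no filter, 12 of 30 were higher, 2 lower and 12 within 2-fold, with a median of 0.70. Fibronectin (Fn1) rose from 64.3 ± 24.9 to 1416 ± 799.7 and 926 ± 155 FPKM, the collagen cross-linker Lox from 0 ± 0 to 18.1 ± 5.38 and 5.22 ± 0.605 FPKM and the inhibitor Timp2 from 0.0960 ± 0.0595 to 23.4 ± 4.04 and 16.4 ± 0.222 FPKM, whereas the fibrillar collagens Col1a1 and Col3a1 were below 0.1 FPKM in each group. Of 14 targets of YAP and TEAD, the transcriptional pair that answers to cell stretch and density, 11 were higher and 0 lower (median 1.80, 8 higher after centring). Ctgf was at 0.0123, 0.0215 and 0.0443 FPKM in the hepatocyte samples, 93.5, 91.1 and 82.3 in mouse-1 and 176, 172 and 159.7 in mouse-2, near the limit of detection in each hepatocyte sample and without overlap of the groups (6.91 (SE 0.06, adjusted p = 7.39e-16)). Ankrd1, listed at 0 in the hepatocytes, reached 0 ± 0, 14.7 ± 0.766 and 21.4 ± 0.979 FPKM in the 3 groups, at least 2140-fold higher by a floor of 3 reads over the hepatocyte samples.

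The Ankrd1 promoter is shown because TEAD binds CATTCC (searched on both strands) and Ankrd1 is a member that went from 0 to a clear level. The 250 bases before its start (chr19:36119845-36120094, GRCm38.p6, minus strand, RefSeq) held 2 matches, in capitals and read here as the reverse complement GGAATG.
Ankrd1: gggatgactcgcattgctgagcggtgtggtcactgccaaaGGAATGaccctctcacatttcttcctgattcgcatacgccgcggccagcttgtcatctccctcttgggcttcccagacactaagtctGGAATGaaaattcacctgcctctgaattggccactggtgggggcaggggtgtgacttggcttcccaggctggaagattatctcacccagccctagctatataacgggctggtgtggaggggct
CATTCC was found in 12.6% of all promoters, in 10.6% of those of the genes tested and in 6 of 10 promoters of the list, which cover 9 of its 14 genes.

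**Figure D3:**
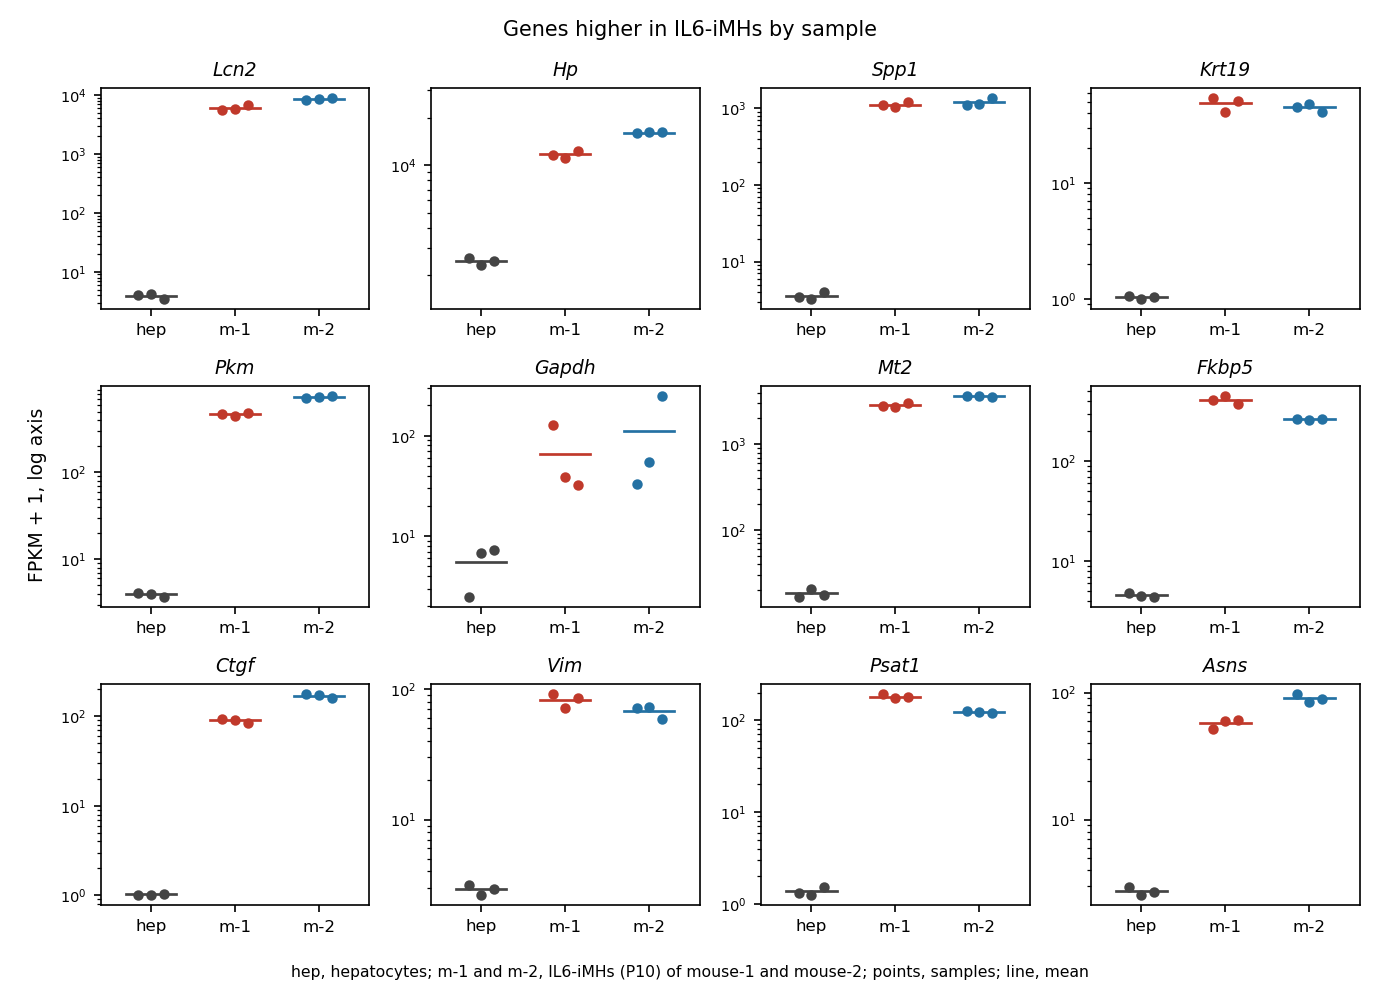
FPKM + 1 (y axis, log scale) of 12 genes higher in IL6-iMHs in each sample of hepatocytes and of the mouse-1 and mouse-2 lines (P10), with points for samples and lines for group means. In each panel the 6 IL6-iMH samples lie above the 3 hepatocyte samples, by the most for Lcn2 and by the least for Hp.

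Genes that cells switch on when amino acids are short, through the factor ATF4, formed a compact group. Of 21 tested, 16 were higher, 0 lower and 4 within 2-fold, with a median of 2.37 (12 higher after centring, median 1.82). Psat1 and Phgdh, which make serine, rose from 0.373 ± 0.136 to 180.1 ± 9.78 and 122 ± 2.19 FPKM and from 0.196 ± 0.108 to 21.4 ± 3.52 and 41.1 ± 4.23 FPKM. Asparagine synthetase (Asns) was at 1.93, 1.55 and 1.69 FPKM in the hepatocyte samples, 50.9, 58.5 and 60.4 in mouse-1 and 96.0, 83.8 and 87.6 in mouse-2, so the groups did not overlap (4.72 (SE 0.08, adjusted p = 4.9e-14)), and the glutathione-degrading enzyme Chac1 rose from 1.89 ± 0.112 to 13.3 ± 2.14 and 52.9 ± 4.91 FPKM. The mitochondrial carboxykinase Pck2 rose from 0.418 ± 0.0606 to 28.7 ± 1.64 and 33.5 ± 1.05 FPKM, the reverse of the cytosolic Pck1. Atf4 itself was not called, at 75.1 ± 1.49 FPKM in hepatocytes and 96.9 ± 3.46 and 176 ± 7.36 in mouse-1 and mouse-2, and Ddit3, Cebpg, Shmt2 and Atf5 were within 2-fold.

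ATF4 acts through the amino acid response element, searched here as TGATGNAA on both strands. The promoters of Asns, Chac1 and Pck2 are shown because each held 1 match, in capitals, within 250 bases before its start, at chr6:7693210-7693459 (minus strand), chr2:119350992-119351241 (plus strand) and chr14:55540016-55540265 (plus strand), GRCm38.p6, RefSeq.
Asns: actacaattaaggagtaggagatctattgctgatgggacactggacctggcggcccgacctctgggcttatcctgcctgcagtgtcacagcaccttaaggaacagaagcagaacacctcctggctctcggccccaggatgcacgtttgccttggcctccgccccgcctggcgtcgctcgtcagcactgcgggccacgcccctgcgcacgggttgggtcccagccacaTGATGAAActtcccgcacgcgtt
Chac1: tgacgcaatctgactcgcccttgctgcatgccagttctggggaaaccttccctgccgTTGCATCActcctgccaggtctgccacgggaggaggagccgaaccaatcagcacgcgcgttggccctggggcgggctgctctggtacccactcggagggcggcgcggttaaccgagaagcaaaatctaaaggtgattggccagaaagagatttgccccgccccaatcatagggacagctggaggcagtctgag
Pck2: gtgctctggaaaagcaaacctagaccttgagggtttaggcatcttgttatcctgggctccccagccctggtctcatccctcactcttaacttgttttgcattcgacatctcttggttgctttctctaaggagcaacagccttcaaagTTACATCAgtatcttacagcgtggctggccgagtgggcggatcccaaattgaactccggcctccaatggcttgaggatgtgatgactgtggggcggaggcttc
The capitals of Asns are read in the direction of the gene, and those of Chac1 and Pck2 are the reverse complement. The motif was held by 3.45% of all promoters, by 2.1% of those of the genes tested and by 5 of 22 promoters of the list. Those 22 cover 19 of its 21 genes, and the other 2 holders were Nupr1 and Vldlr. Trib3 and Psat1 rose without a match in this window.

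Genes of the respiratory chain moved little. Of 40 nuclear genes of the mitochondrial respiratory chain, 39 were within 2-fold and none was called, with a median of -0.31 against 0.46 over all genes tested, and 3 were lower and 10 within 2-fold after centring. Over all genes tested, 44.9% were within 2-fold, 17.8% higher and 7.57% lower. Of 20 genes of folding in the endoplasmic reticulum, 11 were within 2-fold, 1 was higher and 2 were lower (median -0.23), the riser Herpud1 losing its call after centring (1.10). Of 25 lysosomal genes, 12 were within 2-fold, 6 higher and 1 lower (median 0.30, -0.24 after centring), shares near those over all genes. Cd63, a tetraspanin of late endosomes, was at 0.171, 0.164 and 0.563 FPKM in the hepatocyte samples, 319, 252 and 329.6 in mouse-1 and 457, 476 and 472 in mouse-2, without overlap of the groups. Of 23 NRF2 targets and antioxidant genes, 7 were higher, 3 lower and 8 within 2-fold (median 0.12, -0.42 after centring). Gpx1, the main glutathione peroxidase of liver, fell from 3116 ± 89.7 to 399 ± 48.2 and 452 ± 25.3 FPKM, and the secreted form Gpx3 rose from 0.123 ± 0.0446 to 65.0 ± 5.86 and 46.4 ± 8.78 FPKM. Nqo1 and Osgin1, both NRF2 targets, fell, and the targets Hmox1 and Abcc1 rose by 2.29 and 2.80.

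The cell cycle was mixed. Of 28 genes tested, 14 were higher, 0 lower and 8 within 2-fold (median 1.14, 9 and 10 higher under the 2 scalings), and the leading rise was in an inhibitor. Cdkn1a, the p21 inhibitor of cyclin-dependent kinases, rose from 3.98 ± 0.648 to 128 ± 5.65 and 106 ± 7.96 FPKM, and the inhibitors Cdkn2b, Cdkn1b and Cdkn2a rose by 3.17, 2.13 and 2.07. Cyclin D1 (Ccnd1) was at 2.16, 2.21 and 2.33 FPKM in the hepatocyte samples, 28.7, 22.9 and 25.9 in mouse-1 and 22.0, 23.1 and 19.96 in mouse-2, above the hepatocytes in all 6 samples and below the IL6-iHPCs at 69.2 ± 4.22 and 90.6 ± 2.31 FPKM. The mitotic genes were low, with Cdk1 at 0.379 ± 0.0523, 4.08 ± 0.727 and 3.39 ± 0.116 FPKM in hepatocytes, mouse-1 and mouse-2 and Mki67, the usual mark of dividing cells, below the filter at 0.00155, 0.00678 and 0.00745 FPKM in hepatocytes, 0.292, 0.212 and 0.213 in mouse-1 and 0.0303, 0.0648 and 0.168 in mouse-2. Pcna, Mcm7 and Cdk2 were within 2-fold. Of the other genes that the study names, Elf3 rose from 0.209 ± 0.0657 to 4.40 ± 0.275 and 3.11 ± 0.0643 FPKM, Barx2 was listed at 0 in the hepatocytes and reached 0 ± 0, 1.44 ± 0.445 and 2.21 ± 0.310 FPKM in the 3 groups (a call lost under both scalings), and Foxm1 and Mxd3 were below the filter.

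Of 20 immediate early and heat shock genes, 5 were higher and 5 lower (median -0.03). Immediate early genes answer to handling of cells within minutes. Fos and Jun fell from 60.4 ± 6.78 to 1.76 ± 0.293 and 8.35 ± 0.993 FPKM and from 113 ± 10.4 to 35.6 ± 3.73 and 44.2 ± 4.58 FPKM, while Ier3, Klf6, Myc and Klf4 rose, Ier3 going from 0.205 ± 0.115 to 62.4 ± 4.26 and 137 ± 10.4 FPKM. Such genes are known to be induced when liver is taken apart into single cells, and their part in these differences was not tested.

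Interferon-induced and antigen presentation genes were lower, with 0 of 25 higher, 13 lower and 3 within 2-fold (median -1.35, 17 and 20 lower under the 2 scalings). Irf7, the interferon regulatory factor, fell from 91.7 ± 5.14 to 7.15 ± 0.711 and 9.53 ± 1.12 FPKM, Bst2 (tetherin) from 449 ± 24.0 to 39.0 ± 7.04 and 63.5 ± 2.86 FPKM and Isg15 from 37.7 ± 4.69 to 4.69 ± 0.992 and 7.56 ± 0.886 FPKM. The proteasome subunit Psmb8 and the peptide transporter Tap1 also fell, with log2 differences of -1.88 and -1.62, and B2m and H2-D1 were not called. Markers of Kupffer, endothelial and blood cells also held falls. Of 8 Kupffer cell markers tested, 6 were lower and 1 higher, and all 8 blood cell markers tested were lower. Markers near 0 in IL6-iMHs pass the filter only through the hepatocytes, so falls among those tested were largely set by the filter. With no filter, 6 of 15 Kupffer cell markers were lower, 1 higher and 7 within 2-fold. Of 15 blood cell markers, 8 were then lower and 6 within 2-fold. The defining Clec4f was at 3.21 ± 0.288, 0 ± 0 and 0 ± 0 FPKM in hepatocytes, mouse-1 and mouse-2. In summed FPKM the 15 Kupffer cell markers gave 29.4 to 34.8 in hepatocytes and 20.4 to 33.2 in IL6-iMHs, where most of the sum was Cd14, the endotoxin co-receptor, which rose from 0.309 ± 0.0704 to 18.5 ± 2.40 and 31.1 ± 0.588 FPKM. The other 14 markers summed to 29.2 to 34.5 in hepatocytes and 1.46 to 4.72 in IL6-iMHs, and the part of other cells in the interferon result was not tested.

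Of 7 endothelial markers tested, 4 were lower and 1 higher, and with no filter 4 of 15 were lower and 6 within 2-fold. Flt1, a receptor for vascular endothelial growth factor, rose from 0.498 ± 0.139 to 38.0 ± 8.61 and 9.40 ± 0.870 FPKM with no rise of Kdr, Eng or Clec4g. Of 14 genes on a list of chemokines and cytokines, 5 were higher and 3 lower. Ccl2, which attracts monocytes, went from 0.0693 ± 0.0938 to 20.01 ± 6.55 and 22.1 ± 1.55 FPKM and the receptor Tnfrsf12a from 8.29 ± 0.836 to 154 ± 23.7 and 235 ± 11.1 FPKM. In bulk samples, fewer cells of a type and less RNA per cell cannot be told apart.

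**Figure D4:**
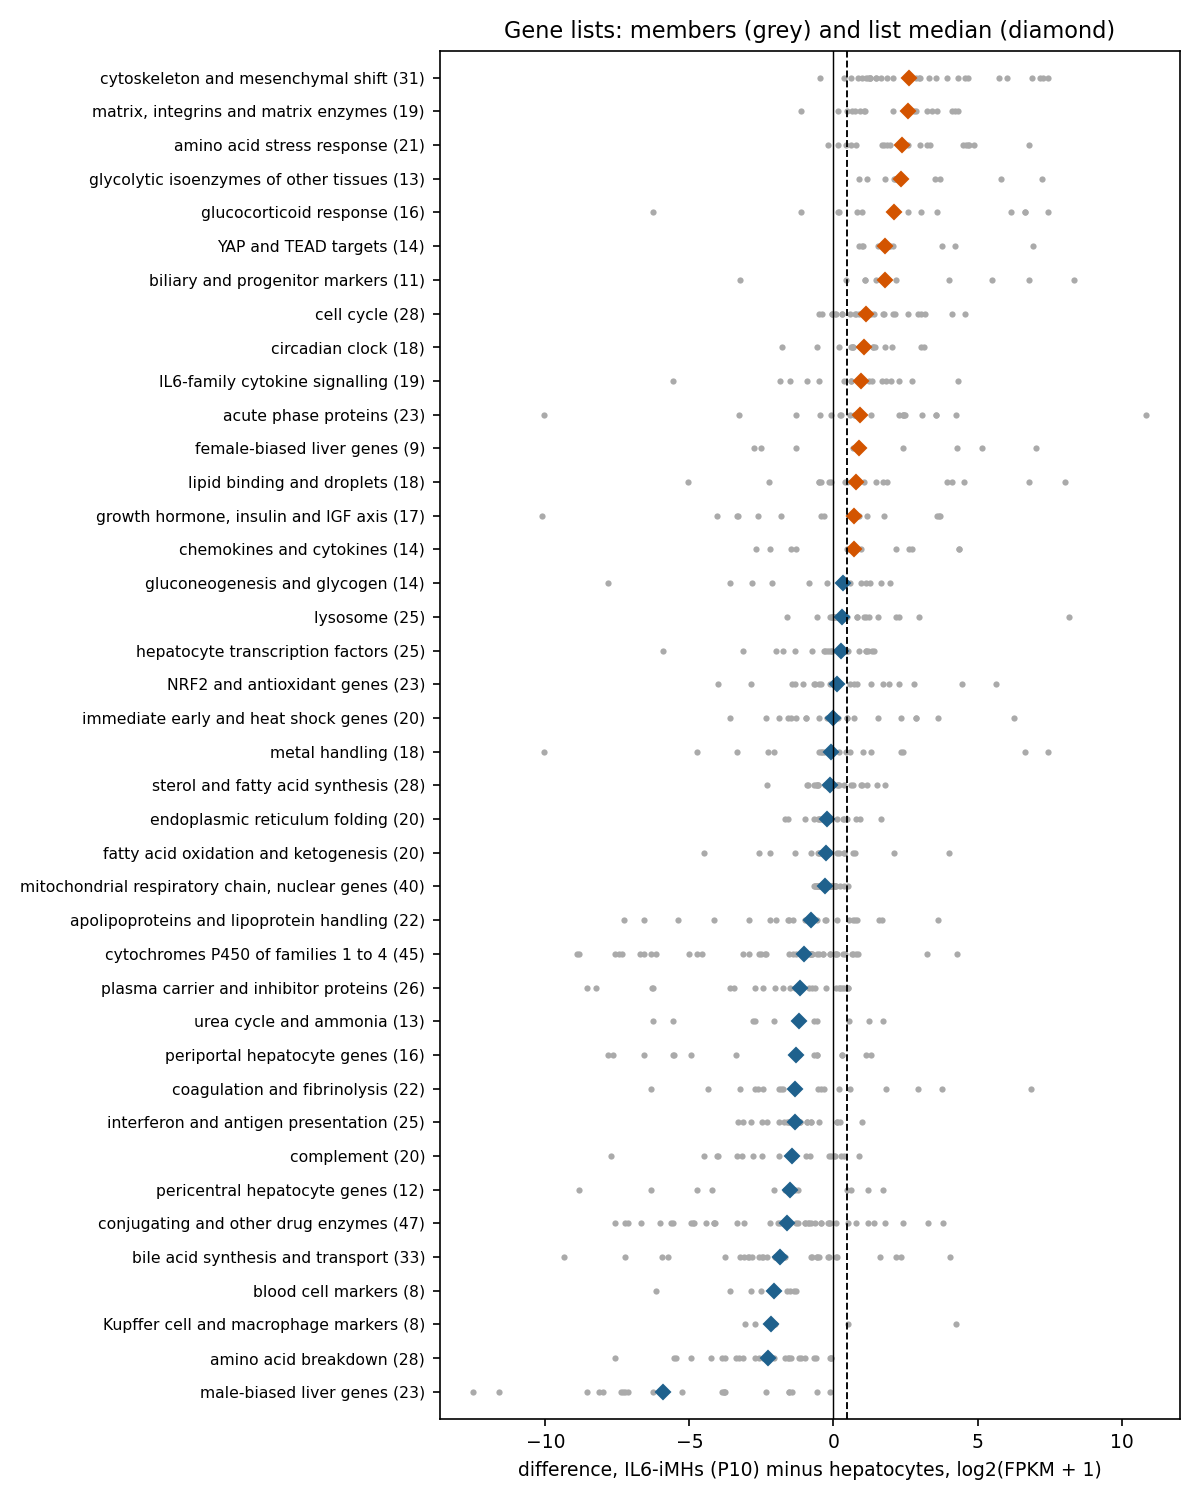
Difference between IL6-iMHs (P10) and hepatocytes on the log2(FPKM + 1) scale (x axis) for every tested member of each gene list (grey points, number of members in brackets) with the list median as a diamond, for lists with at least 8 tested members. The solid line marks 0 and the dashed line 0.46, the median of all genes tested, and diamonds are orange above and blue below it. Cytoskeleton, matrix and amino acid stress lists are at the top and male-biased genes and amino acid breakdown at the bottom.

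Some of the largest changes fell outside these groups. Car3, a muscle and liver carbonic anhydrase, was at 1515, 1626 and 1180 FPKM in the hepatocyte samples, 0, 0.0641 and 0.113 in mouse-1 and 0.0163, 0.0573 and 0.0823 in mouse-2, and Ces3b and Rnase4, a secreted ribonuclease, fell from 543 ± 34.4 to 0.273 ± 0.169 and 0.627 ± 0.0331 FPKM and from 443 ± 27.3 to 0.393 ± 0.218 and 1.32 ± 0.485 FPKM. Akr1c6, a steroid dehydrogenase, fell from 765 ± 66.4 to 0.120 ± 0.0367 and 0.234 ± 0.130 FPKM. All IL6-iMH samples lay below 2 FPKM for these 4 genes. On the other side, S100a11, a calcium-binding protein, rose from 2.62 ± 0.778 to 354 ± 43.3 and 515 ± 25.5 FPKM. Across the table, 94 of the genes tested were listed at 0 in every hepatocyte sample, and 65 with a lower bound, besides Elovl3, in every IL6-iMH sample.

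Although both lines had the same treatment, 748 genes (7.24%) differed between them by 2-fold or more with an adjusted p under 0.05, 634 being higher in mouse-1 (6.14%) and 114 higher in mouse-2 (1.10%). The estimated difference uses the IL6-iMH samples alone, while the variance behind its p-value comes from all 3 groups of the fit. The excess on one side depended on scaling and threshold. The split was 332 against 174 after quantile normalization, 247 against 212 after centring and 10 against 15 at 4-fold, and the median difference over all genes was 0.12. Leaving out mouse-1 replicate 2, the library that stood apart, left 651 such genes. Since each line is from 1 mouse, line and donor cannot be told apart.

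Only Ppp1r3c (0.00968% of the genes tested) was higher than hepatocytes in one line and lower in the other. This scaffold, which brings a phosphatase to glycogen, was at 28.6, 30.7 and 33.2 FPKM in the hepatocyte samples, 169, 188 and 169 in mouse-1 and 8.93, 8.35 and 10.9 in mouse-2, the hepatocytes lying between the lines, and the lines differed by 4.09 (SE 0.10, adjusted p = 2.78e-10). Cyp4a14, a fatty acid hydroxylase induced through PPARA, was at 16.8, 19 and 19.4 FPKM in the hepatocyte samples, 32.6, 33.6 and 28.9 in mouse-1 and 3.18, 2.3 and 3.26 in mouse-2, again on either side of the hepatocytes (3.07 (SE 0.11, adjusted p = 7.92e-09) between lines). Apob, the structural protein of very-low-density lipoprotein, was at 29.1, 54.2 and 37.8 FPKM in the hepatocyte samples, 129.9, 207 and 105 in mouse-1 and 17.6, 22.1 and 51.1 in mouse-2. It varied widely among samples of a group, and the mouse-2 samples overlapped the hepatocytes while the mouse-1 samples did not. Defb1, an epithelial defensin, was higher in mouse-1 by 2.33 (SE 0.12, adjusted p = 9.82e-08).

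Genes higher in mouse-2 were led by Egr1, an immediate early factor, at 48.9, 64.7 and 28.2 FPKM in the hepatocyte samples, 6.59, 7.5 and 5.68 in mouse-1 and 79.1, 82.7 and 63.4 in mouse-2. The mouse-2 samples overlapped the hepatocyte range only at its upper end and the mouse-1 samples lay below all others (-3.32 (SE 0.23, adjusted p = 6.88e-07)). Osgin1 was at 336 ± 40.2, 6.31 ± 0.621 and 59.4 ± 4.42 FPKM in hepatocytes, mouse-1 and mouse-2, Cyp2c29 at 637 ± 58.1, 30.2 ± 3.89 and 224 ± 40.2 FPKM and the chemokine Cxcl12 at 56.4 ± 1.42, 2.55 ± 0.0264 and 21.1 ± 0.226 FPKM, so that in each the mouse-2 line was nearer to hepatocytes, by -3.05, -2.85 and -2.64 as mouse-1 minus mouse-2. The acute phase protease inhibitor A2m was detected in mouse-2 alone above 1 FPKM, at 0.00322, 0.0452 and 0.0155 FPKM in the hepatocyte samples, 0.0764, 0.156 and 0.106 in mouse-1 and 5.09, 4.24 and 4.72 in mouse-2.

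**Figure D5:**
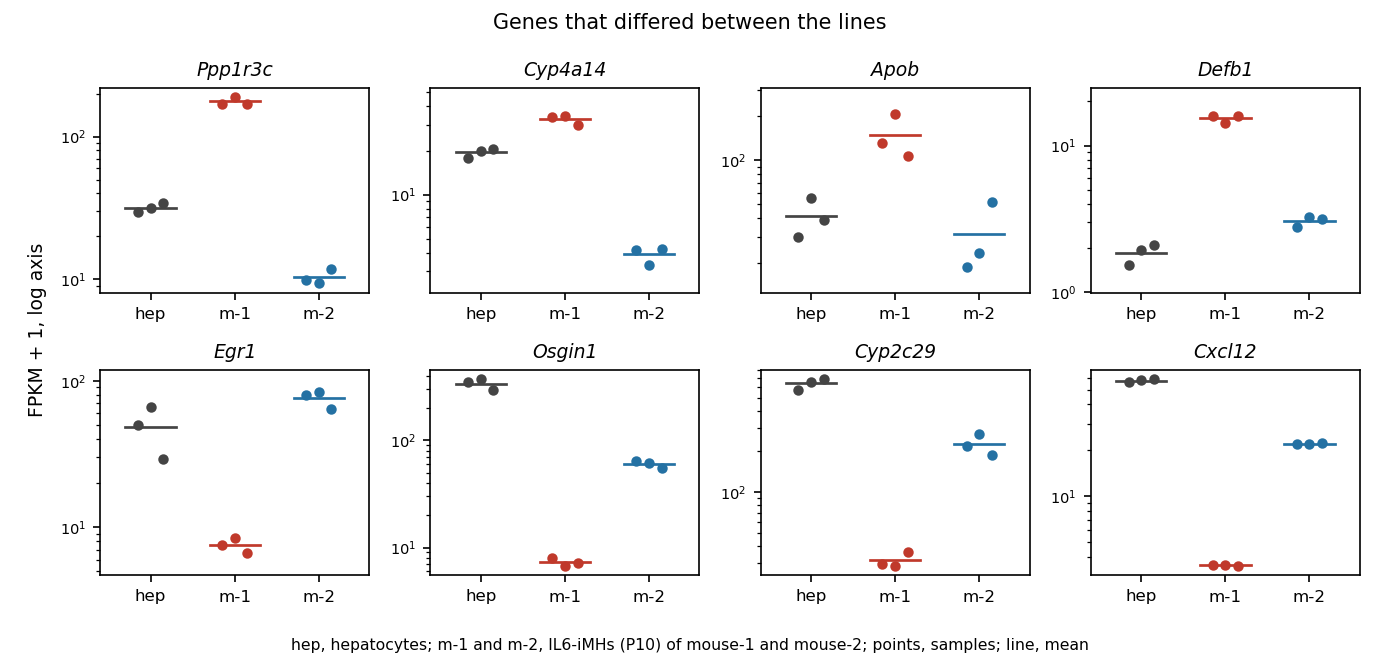
FPKM + 1 (y axis, log scale) of 8 genes with large differences between the lines, in each sample of hepatocytes and of IL6-iMHs (P10) of mouse-1 and mouse-2, with points for samples and lines for group means. The upper 4 genes are higher in mouse-1 and the lower 4 in mouse-2, and for Ppp1r3c and Cyp4a14 the hepatocytes lie between the lines.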

How the data were processed

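Purified mRNA of mouse cells was sequenced after fragmentation and library amplification. The submitters' processing notes name TopHat 1.4.1, Cufflinks 1.3.0 and the build mm10, with no role or order, and no strand setting is given in the sources used here. The authors deposited FPKM values, 1 per gene symbol and sample, in a table of 19357 rows and 33 samples. Of its symbols, 2 were listed more than 1 time and kept as separate rows, and 27 appear as dates and were left unchanged. All 33 columns were mapped to samples by title.

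Values above 0 were whole multiples of what 1 read is worth for that gene and sample, and all 482918 of them gave whole reads within 0.05 read (100%). These reads served for depth and for limma voom, which called 2665 genes higher and 861 lower. Elovl3, whose implied length was under 200 bases, was left without a bound.

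The fit used limma 3.58.1 (R 4.3.3, intensity trend for the prior variance) on log2(FPKM + 1), 3 groups together, for genes reaching 1 FPKM in 3 or more of the 9 samples, and p-values were adjusted by the Benjamini-Hochberg method over all of these. Calls needed an adjusted p under 0.05 and a change of 2-fold or more in the same direction in each line, and a gene counted as within 2-fold where the 95% interval lay inside -1 to 1 in each line. Values after ± are SDs (n = 3). "From a to b and c" gives the means of hepatocytes, mouse-1 and mouse-2. A two-sided exact permutation test of 3 against 3 samples cannot go below p = 0.10, so p-values rest on variances shared across genes. Lower bounds used a floor of 3 reads over a group and cover counting error only.

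The comparison, the gene lists, the rule for named genes and the tests were chosen with earlier results of these data known. The rule takes the 15 largest changes each way, up to 3 each way from each list, the genes the study names, the 5 largest differences each way between lines and the 20 most abundant genes, 216 in all, not all of which are named. Results on some genes are not reported here. Other list members, such as Atf4 or Cdh1, and the motifs were picked with their values already known. Promoters (RefSeq, GRCm38.p6) were matched by symbol. A STAT element, TTCNNNGAA, was also searched for, in the promoters of the acute phase proteins. It was held by 7.02% of all promoters, by 5.77% of those of the genes tested and by 6 of 18 promoters of the list. These cover 17 of its 23 genes. Of the 7 higher genes among them, 1 held it, and no promoter with it is shown. The fit was tested on simulated data with known changes. Python 3.11.15, numpy 2.4.6, pandas 2.3.3 and matplotlib 3.10.9 were used. Alternatives were another pseudocount, filters, quantile normalization, median centring, a replicate block, all 11 groups of the table in 1 fit, voom, other fold thresholds and leaving out each sample.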

Additional observations from a re-analysis of the deposited data

Results flagged for a closer look

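The difference between the 2 lines was tested itself, as mouse-1 minus mouse-2 in the same limma fit, and it passed the threshold for 748 genes. Genes that the naming rule takes are given here. All values below are log2 differences of mouse-1 minus mouse-2 on the log2(FPKM + 1) scale.

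Genes lower than in hepatocytes in both lines but nearer to hepatocytes in mouse-2 included the plasma proteins and clotting genes Cpb2 (-2.11), Serpinf1 (-1.80), Apoa2 (-1.73), Saa4 (-1.18) and C8a (-1.16), the enzymes Ces3a (-2.27), Cyp2c29 (-2.85), Cyp1a2 (-1.62) and Haao (-1.33), and Osgin1 (-3.05), Cxcl12 (-2.64) and Fos (-1.76). Nearer in mouse-1 were Gls2 (1.48) and Hal (1.37), both of amino acid breakdown, Pigr (1.48), the receptor that carries immunoglobulin A into bile, and Gadd45g (1.14).

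Among genes higher than in hepatocytes in both lines, the higher line was mouse-1 for Flt1 (1.89), Ddit4 (1.39), Slc10a2 (1.32), Sult1d1 (1.27), the ribonucleotide reductase subunit Rrm2 (1.25) and Cyp4b1 (1.01). It was mouse-2 for the antioxidant enzyme Sod3 (-1.31), the clock gene Dbp (-1.25), Plaur (-1.24), Spink1 (-1.12), Ier3 (-1.12) and Gstm2 (-1.04). Of the genes not called in both lines, Ppp1r3c (4.09), Cyp4a14 (3.07), Apob (2.34) and Defb1 (2.33) were higher in mouse-1, and Egr1 (-3.32), A2m (-2.35) and Arg1 (-1.38) in mouse-2. Donor, culture and library cannot be told apart in these differences.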

How the results depend on the processing

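Among the counts, the one of genes differing between the lines, 748 as reported, moved most, to 1536 with a pseudocount of 0.1, 1707 with limma voom on recovered reads, 459 after median centring, 25 at a 4-fold threshold and 6523 with no fold threshold. Higher genes, 1836 as reported, numbered 1097 after quantile normalization, 928 after median centring, 564 at 4-fold and 5355 with no fold threshold. Lower genes, 782 as reported, numbered 1178 after median centring, 360 at 4-fold and 1625 with no fold threshold. Genes within 2-fold, 4643 as reported, numbered 10633 with no filter, where 16511 genes were tested. On the same 10334 genes they numbered 3590 with a pseudocount of 0.1 and 3490 with limma voom. They numbered 5961 after quantile normalization and 5723 after median centring. A filter at 5 FPKM and all 11 groups in 1 fit kept the counts within 1.5 times. Leaving out 1 sample gave 1767 to 1889 higher genes, 775 to 786 lower, 4349 to 4775 within 2-fold and 651 to 910 differing between the lines. No called gene among those named changed sign. Some list medians did, namely those of hepatocyte transcription factors, glucose metabolism, the growth hormone axis, lysosome and NRF2 genes, as given with them. That of immediate early and heat shock genes went from -0.03 to 0.15 with a filter at 5 FPKM. The same filter turned the median of the Kupffer cell and macrophage markers from -2.15 to 0.60. It left 2 of them tested, 1 higher and 1 lower. Of 1685 values of the named genes under 8 other settings, 1661 kept their side of the threshold, 19 lost their call and 5 gained it, and the cause was not tested.

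Replicate numbers did not pair the samples. Of 9 pairs with the same number in different groups, 4 had a correlation of residuals over 0.1 (from -0.25 to 0.60), and 0 of 9 samples correlated best with its own number in both other groups. A fit with the replicate number as a block gave 1836 genes higher, 782 lower, 4715 within 2-fold and 748 differing between the lines.

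The 3 samples of a group are technical repeats, so the small standard errors say nothing of the spread between mice. FPKM is a share of the library, and the direction of small changes depended on scaling, as the medians show. Genes with few reads have understated changes on this scale.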

Other observations

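The IL6-iHPCs (P10) from which the matured cells were made are no members of the comparison, and their levels are given here for some of its genes, as means ± SD of 3 samples for mouse-1 and mouse-2, with no test. Several liver genes were far lower before maturation than in hepatocytes or IL6-iMHs. Arg1 was at 0.422 ± 0.141 and 0.0726 ± 0.0293 FPKM in IL6-iHPCs and at 1107 ± 68.5, 297 ± 30.0 and 776 ± 75.8 FPKM in hepatocytes and the 2 IL6-iMH lines. Serpina1e was at 5.02 ± 0.611 and 6.32 ± 0.618 FPKM, Cyp2e1 was at 0 in both lines, and Cyp2c29 was at 5.23 ± 0.669 and 0.768 ± 0.0707 FPKM. Hnf4a was at 216 ± 13.4 and 174 ± 1.53 FPKM, near its level in IL6-iMHs.

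Among genes higher in IL6-iMHs than in hepatocytes, some were already high before maturation. S100a11, Pkm and Anxa2 were at 499 ± 20.1 and 769 ± 31.2 FPKM, 582 ± 54.6 and 671 ± 10.01 FPKM and 305 ± 22.6 and 469 ± 23.0 FPKM, and the progenitor gene Sox9 was at 41.5 ± 1.99 and 25.7 ± 1.96 FPKM, above the matured cells. Apob, which differed between the matured lines, was at 666 ± 41.6 and 562 ± 1.55 FPKM before maturation, above hepatocytes and both matured lines, and Ppp1r3c at 0.275 ± 0.179 and 1.05 ± 0.0206 FPKM.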
